A study of Danio rerio with 15 samples.

Results

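The genes described here encode caspases and their activators, Bcl2 family proteins, mitochondrial death proteins and a TRAIL-like ligand. The genes *casp8* and *baxa* and the BH3-only genes are not among them. The list names 10 genes, *tnfsf10l*, *apaf1*, *casp9*, *casp3a*, *diabloa*, *aifm1*, *bcl2l1*, *bcl2l10*, *mcl1a* and *mcl1b*, and a gene was measured where a probe set of the array carried its symbol and no other. By this rule 9 genes had 12 probe sets of their own among the 15502 probe sets tested, and *casp3a*, which encodes an executioner caspase, was not analysed here. The study depleted zebrafish embryos of Esco2, the acetyltransferase that makes cohesin cohesive. With the arrays it asked whether the genes that respond resemble those downstream of the cohesin subunit Rad21. Soon after fertilization embryos received a translation-blocking morpholino against *esco2* (morphants) or buffer alone (controls, given as wild type), and RNA of whole dechorionated embryos was hybridized to Affymetrix arrays. There were 4 arrays of control embryos at 24 hpf (hours post fertilization), 4 of morphants at 24 hpf, 3 of controls at 48 hpf (replicates 1, 3 and 4) and 4 of morphants at 48 hpf, each from a pool of 50 embryos. The labels give no strain and no other allele or agent. No group received an unrelated morpholino, so a response to the depletion of Esco2 and a response to an injected morpholino cannot be told apart.

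Cells die by apoptosis along an extrinsic branch, which starts when a ligand such as TRAIL engages a death receptor, or along an intrinsic branch that runs through the mitochondrion. In the intrinsic branch, anti-apoptotic Bcl2 proteins (Bcl-xL, Mcl1 and their relatives) hold Bax and Bak in check, and once the outer membrane is permeable, cytochrome c and Apaf1 assemble the apoptosome that activates caspase 9. Diablo, released with cytochrome c, relieves caspases of their inhibitors, and Aifm1, a flavoprotein needed for the respiratory chain, can move to the nucleus and promote DNA breakdown without caspases. Most of these proteins are controlled after translation, by cleavage, binding or release, so that the RNA levels given here are not a measure of their activity.

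Values are RMA values on the log2 scale, and every difference is morphant minus control on that scale unless another is named. A gene is said to have risen or fallen where its adjusted p from limma, over all 15502 probe sets, was under 0.05. The targeted gene, *esco2*, is no check of the knockdown, since the morpholino blocks translation. Its RNA was 9.16 ± 0.04 (SD, n = 4) in controls and 8.85 ± 0.11 (n = 4) in morphants at 24 hpf, a fall (-0.31, adjusted p = 0.0345), and 8.16 ± 0.13 (n = 3) against 8.55 ± 0.18 (n = 4) at 48 hpf, a rise (0.40, adjusted p = 0.00643). One library was unlike the others, the control array of replicate 3 at 48 hpf. The mean correlation of this array with its own group was 0.985, against 0.989 to 0.997 for the other arrays, and the median of 20 control probe sets without a target in the fish was 4.52 on it, against 3.73 to 4.29. It gave the highest value of all 15 arrays for *aifm1* and *apaf1* and the lowest for *tnfsf10l*, so that several results at 48 hpf are also given without it. Shares of all probe sets were counted with all arrays only, so counts of genes without that array have no share to be read against. Of 28 markers of neurons, muscle, red cells, epidermis, lens and myeloid cells, 26 lay above the highest of these non-target medians on every array. The median of all probe sets, 5.76 to 5.92 over the arrays, lay above it too, so this is a weak check of the whole-embryo label.

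At 48 hpf *diabloa* and *tnfsf10l* rose and *bcl2l10* fell in the morphants, and the other 6 genes did not pass the test. At 24 hpf none of the 9 genes passed. The rises at 48 hpf were 1.45-fold for *diabloa* and 1.71-fold for *tnfsf10l*, and *bcl2l10* was at 0.774 of the control level. No gene reached the 2-fold change of the study's own rule in either comparison. Among all probe sets, 12.8% rose and 9.79% fell at 48 hpf, and 4.43% rose and 5.33% fell at 24 hpf, so the counts of 2 and 1 among 9 genes are read gene by gene and not as a property of the group. The rises were 56.7% of all calls at 48 hpf and 45.4% at 24 hpf, or 83.2% and 57.3% when each array was centred on 64 ribosomal protein genes. In RNA of whole embryos, fewer cells of a type and less RNA per cell cannot be told apart.

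**Figure D1:**
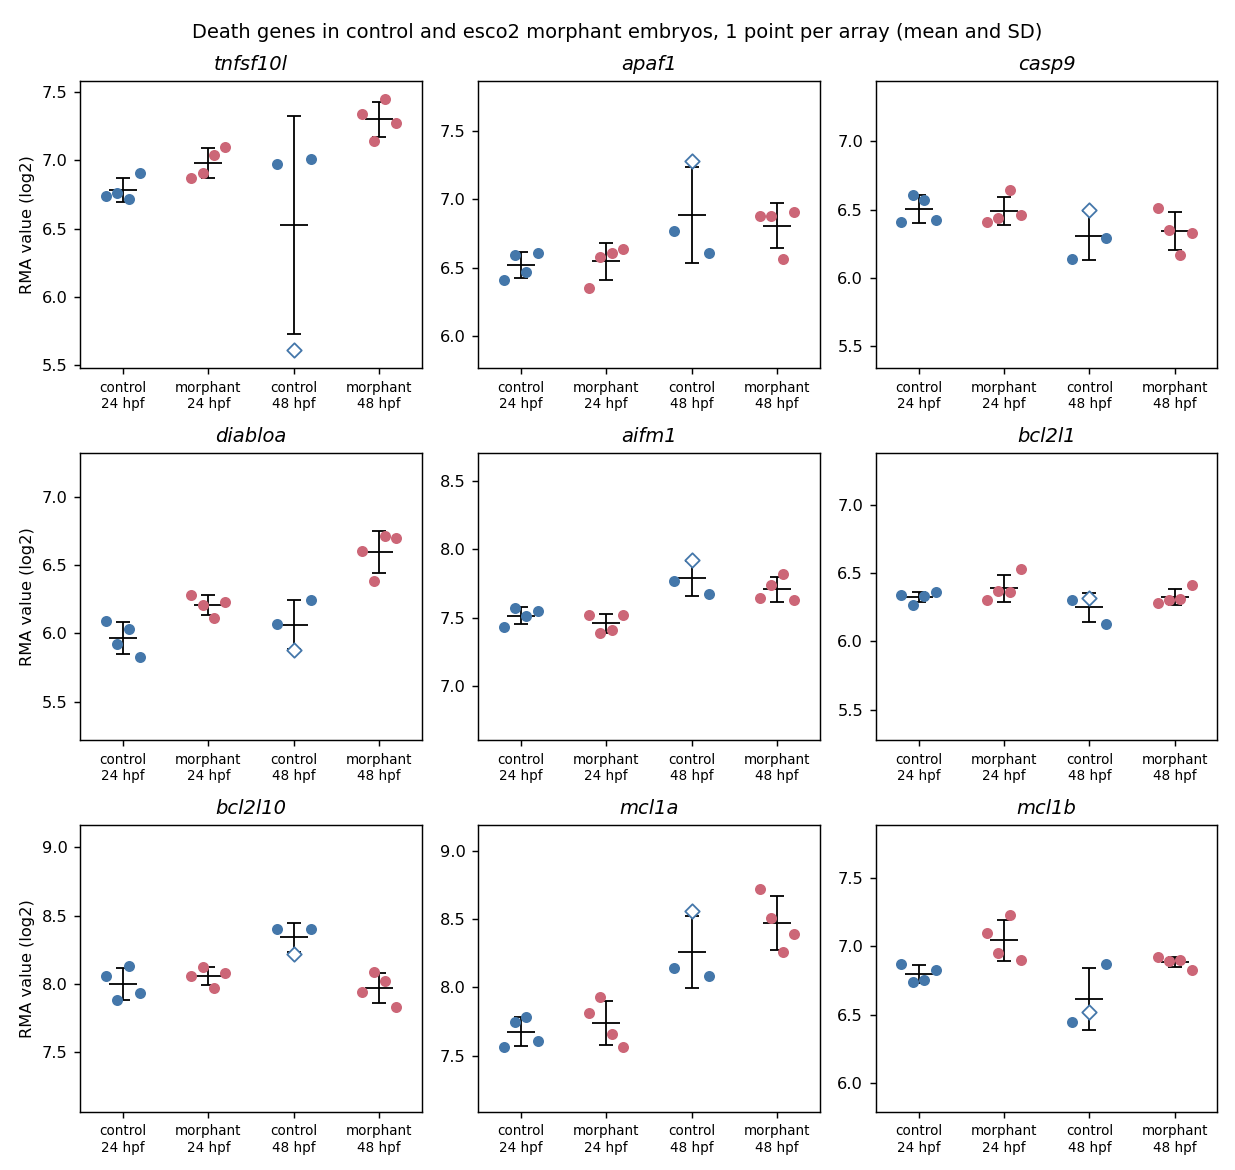
RMA values (log2, vertical axis) of the 9 death genes in controls (blue) and esco2 morphants (red) at 24 and 48 hpf, with 1 point per array and lines for the mean and SD. The open diamond is control replicate 3 at 48 hpf, which lies at 5.61 for *tnfsf10l* and at 7.28 for *apaf1*, outside all other arrays of those panels.

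*tnfsf10l* encodes a TRAIL-like ligand of the tumour necrosis factor superfamily. At 24 hpf its values were 6.74, 6.76, 6.72 and 6.91 in controls and 6.87, 6.91, 7.04 and 7.10 in morphants. At 48 hpf they were 6.97, 5.61 and 7.01 in controls (replicates 1, 3 and 4) and 7.34, 7.14, 7.45 and 7.27 in morphants. At 48 hpf all morphant arrays were higher than all control arrays, while at 24 hpf the groups overlapped. The difference at 48 hpf was 0.77 (SE 0.22, 95% interval 0.30 to 1.24, adjusted p = 0.0185), and at 24 hpf it was 0.20 (interval -0.24 to 0.63, adjusted p = 0.64). The smallest gap of *tnfsf10l* to the non-target median of an array was 1.09. Much of the size at 48 hpf came from the control array at 5.61. Without that array the controls were at 6.97 and 7.01, and the difference was 0.31 (SE 0.09, adjusted p = 0.0214). The array also widened the interval at 24 hpf through the shared spread, and without it that interval was 0.04 to 0.36 (adjusted p = 0.0932). The effect at 48 minus that at 24 hpf was 0.575 (adjusted p = 0.326), or 0.12 without that array (adjusted p = 0.684). A larger effect at 48 than at 24 hpf was thus not shown for *tnfsf10l*. When the arrays at 48 hpf were fitted without those at 24 hpf, the difference of 0.77 had an adjusted p of 0.111. The *tnfsf10l* difference lay between 0.31 and 1.01 as arrays at 48 hpf were left out, with the same sign throughout.

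The apoptosome genes did not differ between morphants and controls beyond their spread at either time. *apaf1* encodes the scaffold of the apoptosome. At 24 hpf its values ran from 6.41 to 6.61 in controls and from 6.35 to 6.64 in morphants, and the difference was 0.02 (adjusted p = 0.95). At 48 hpf they were 6.77, 7.28 and 6.61 in controls and 6.88, 6.88, 6.56 and 6.91 in morphants. The control of replicate 3 was again the array farthest out, and the groups overlapped. The difference was -0.08 (interval -0.35 to 0.20, adjusted p = 0.746), and without replicate 3 of the controls it was 0.12 (adjusted p = 0.469), so it has no settled sign. A second *apaf1* probe set, which on its dimmest array was only 0.55 above the non-target level, gave 0.07 at 24 hpf and 0.10 at 48 hpf, neither past the test.

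*casp9* encodes the initiator caspase that the apoptosome activates. Controls at 24 hpf had 6.41, 6.61, 6.57 and 6.42 and morphants 6.41, 6.44, 6.64 and 6.46. At 48 hpf controls had 6.14, 6.50 and 6.29 and morphants 6.51, 6.35, 6.17 and 6.33. The groups overlapped at both times, with differences of -0.02 (adjusted p = 0.95) and 0.03 (interval -0.18 to 0.24, adjusted p = 0.872). Neither value was beyond the spread of the arrays.

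Of the mitochondrial proteins, *diabloa*, a zebrafish gene for Diablo (also called Smac), had the smallest adjusted p of the list at 48 hpf. Its values at 24 hpf were 6.09, 5.92, 6.03 and 5.83 in controls and 6.28, 6.21, 6.11 and 6.23 in morphants. At 48 hpf they were 6.07, 5.88 and 6.24 in controls and 6.60, 6.38, 6.71 and 6.70 in morphants. The lowest morphant array was above the highest control array at both times. The smallest gap of *diabloa* to the non-target median of an array was 1.36. At 48 hpf the difference was 0.54 (SE 0.10, interval 0.33 to 0.74, adjusted p = 0.000758), or 1.45-fold. It passed under all 16 alternatives tried for it, at 0.44 to 0.66 with adjusted p from 0.000158 to 0.016, and leaving out control replicate 3 gave 0.44 (adjusted p = 0.00329). At 24 hpf the difference was 0.24 (interval 0.05 to 0.43), 1.18-fold, which had an unadjusted p of 0.0184 and an adjusted p of 0.118 from limma and is not called. That value passed when the arrays at 24 hpf were fitted alone (adjusted p = 0.0355) or with array weights (adjusted p = 0.0364). Over the 17 alternatives tried for it, the adjusted p ran from 0.0355 to 0.301. The difference between the effects at the 2 times was 0.30 (interval 0.01 to 0.58, adjusted p = 0.229), so a larger effect at 48 than at 24 hpf was not shown for *diabloa*.

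*aifm1*, the gene for the apoptosis-inducing factor of mitochondria, gave no difference past the test. Its values at 24 hpf ran from 7.43 to 7.57 in controls and from 7.39 to 7.52 in morphants. At 48 hpf they were 7.77, 7.92 and 7.67 in controls and 7.64, 7.74, 7.82 and 7.63 in morphants. The groups overlapped at both times, and the differences were -0.06 (adjusted p = 0.72) and -0.08 (interval -0.25 to 0.09, adjusted p = 0.51). A second *aifm1* probe set gave -0.02 and -0.08.

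**Figure D2:**
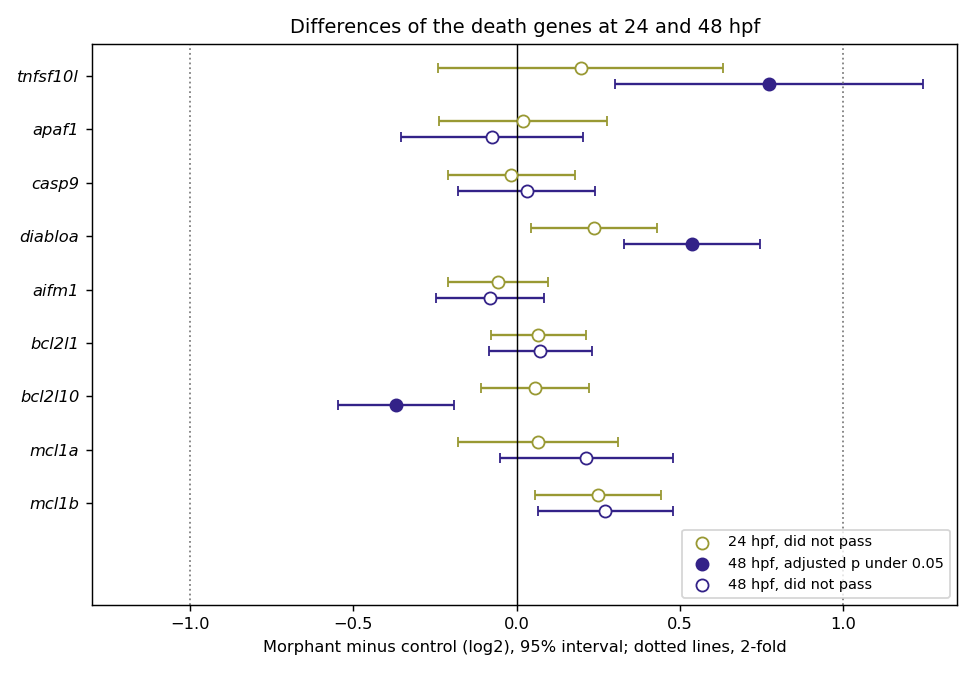
Morphant minus control (log2, horizontal axis) for each of the 9 genes, with 95% intervals from limma, at 24 hpf (olive) and 48 hpf (dark blue). Filled points passed at an adjusted p under 0.05, which only *tnfsf10l*, *diabloa* and *bcl2l10* at 48 hpf did, and dotted lines mark a 2-fold change.

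The anti-apoptotic Bcl2 genes did not move together. *bcl2l10*, which encodes a Bcl2 relative known in zebrafish as Nrz and found at the endoplasmic reticulum, was the only one that fell. Its values at 24 hpf were 8.06, 7.88, 8.13 and 7.93 in controls and 8.06, 8.12, 7.97 and 8.08 in morphants, which overlapped. At 48 hpf controls had 8.40, 8.22 and 8.40 and morphants 7.94, 8.09, 8.02 and 7.83. Every morphant array lay below every control array, and the controls were all above their level at 24 hpf. The difference at 48 hpf was -0.37 (SE 0.09, interval -0.55 to -0.19, adjusted p = 0.00409), and without control replicate 3 it was -0.43 (adjusted p = 0.0019). It passed under all 16 alternatives, at -0.43 to -0.25 with adjusted p from 0.00103 to 0.0352. At 24 hpf the difference was 0.06 (interval -0.11 to 0.22, adjusted p = 0.74).

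*bcl2l10* was also the one gene of the 9 that passed the test for a change of the effect between the times. The effect at 48 hpf minus that at 24 hpf was -0.43 (SE 0.12, interval -0.67 to -0.18, adjusted p = 0.0349). By this interaction 3.75% of all probe sets rose and 2.52% fell, and rises were 59.8% of the calls, or 81.5% with ribosomal protein centring. The call lay near the threshold. It was lost in 9 of 15 fits that each left out 1 array (adjusted p from 0.0512 to 0.0763 in those), with the replicate number as a block (-0.43, adjusted p = 0.0653) and with ribosomal protein centring (-0.33, adjusted p = 0.0732). That centring moved the median interaction of all probe sets from 0.008 to 0.103. Leaving out control replicate 3 at 48 hpf kept the call (-0.49, adjusted p = 0.0154).

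Zebrafish have duplicate genes for the short-lived survival protein Mcl1. *mcl1b* had 6.87, 6.74, 6.75 and 6.83 in controls and 7.10, 6.95, 7.23 and 6.90 in morphants at 24 hpf. At 48 hpf it had 6.45, 6.52 and 6.87 in controls and 6.92, 6.89, 6.90 and 6.83 in morphants. At 24 hpf the groups did not overlap and the morphants were higher, and at 48 hpf the control of replicate 4 lay within the morphant range. The differences were 0.25 (interval 0.06 to 0.44, adjusted p = 0.0969) and 0.27 (interval 0.07 to 0.48, adjusted p = 0.0552), neither of them a call. At 24 hpf it passed with that time point fitted alone (adjusted p = 0.0413) or with array weights (adjusted p = 0.0325). At 48 hpf it passed without dim probe sets (0.27, adjusted p = 0.0465), with array weights (0.36, adjusted p = 0.00543), with ribosomal protein centring (0.40, adjusted p = 0.00771) and without the control array of replicate 4 (0.40, adjusted p = 0.00372). Without the control of replicate 3 it was 0.22 (adjusted p = 0.15). Over all alternatives the adjusted p of *mcl1b* ran from 0.0325 to 0.27 at 24 hpf and from 0.00372 to 0.238 at 48 hpf.

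*mcl1a* had 7.56, 7.75, 7.78 and 7.61 in controls and 7.81, 7.93, 7.66 and 7.56 in morphants at 24 hpf. At 48 hpf it had 8.14, 8.56 and 8.08 in controls and 8.72, 8.51, 8.26 and 8.39 in morphants. The groups overlapped at both times. The differences were 0.07 (adjusted p = 0.81) and 0.21 (SE 0.13, interval -0.05 to 0.48, adjusted p = 0.249). Without control replicate 3, the array at 8.56, the difference at 48 hpf was 0.36 (SE 0.12) and passed (adjusted p = 0.0321), so that 3 of the 9 genes rose and 1 fell. It also passed with array weights (0.34, adjusted p = 0.0133) and with ribosomal protein centring (0.34, adjusted p = 0.0424). That centring moved the median difference of all probe sets at 48 hpf from 0.007 to 0.13. Over all 16 alternatives the *mcl1a* difference at 48 hpf ran from 0.12 to 0.36, with adjusted p from 0.0133 to 0.558.

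*bcl2l1*, the gene for Bcl-xL, gave no difference past the test at either time. Its values at 24 hpf were 6.34, 6.27, 6.33 and 6.36 in controls and 6.30, 6.37, 6.36 and 6.53 in morphants. At 48 hpf they were 6.30, 6.32 and 6.13 in controls and 6.28, 6.30, 6.31 and 6.41 in morphants. The groups overlapped, and the difference was 0.07 at both times (adjusted p = 0.64 and 0.55). A second *bcl2l1* probe set reached down to the non-target level of the arrays, where it can show little of a change, and gave -0.025 and -0.016.

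**Figure D3:**
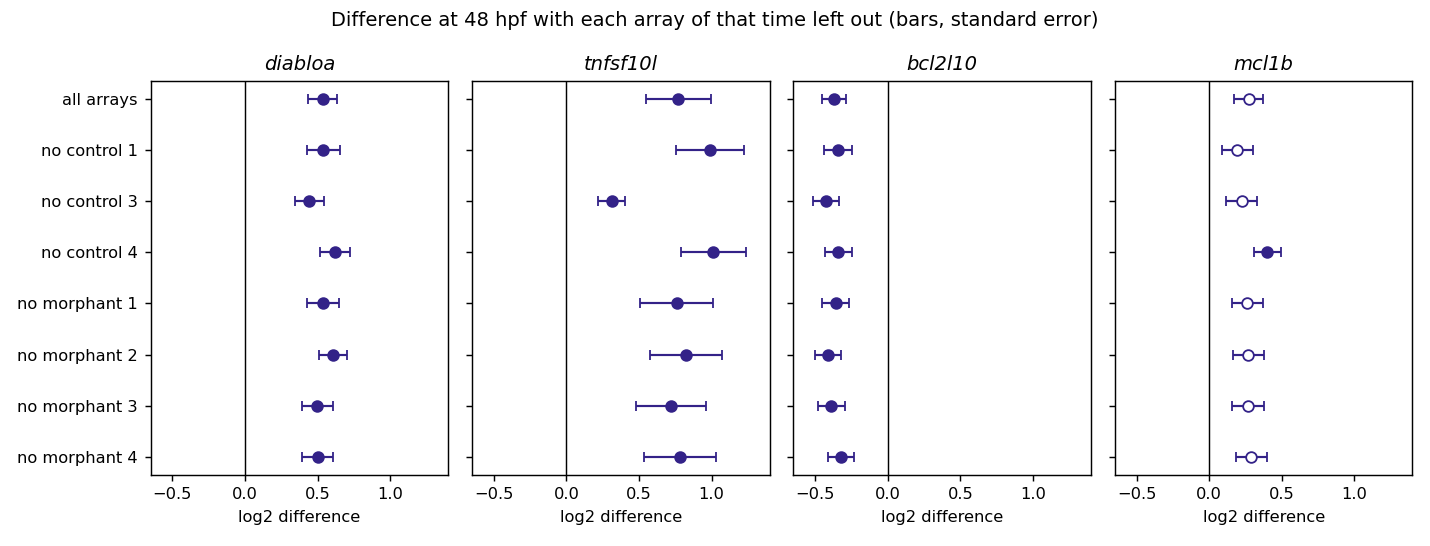
Morphant minus control at 48 hpf (log2, horizontal axis, bars are standard errors) for *diabloa*, *tnfsf10l*, *bcl2l10* and *mcl1b*, with all arrays and with each array of that time left out in turn. Filled points passed at an adjusted p under 0.05. The *tnfsf10l* difference drops to 0.31 without control replicate 3, and *mcl1b* passed, among these fits, only without control replicate 4.

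Counted without a model, *diabloa* and *mcl1b* were 2 of 9 genes with all morphant arrays above all controls at 24 hpf, which 10.0% of all probe sets showed, and none lay wholly below, which 10.9% showed. At 48 hpf *diabloa* and *tnfsf10l* lay wholly above (14.1% of all probe sets) and *bcl2l10* wholly below (11.9%). The median difference of the 9 genes was 0.07 at both times, against 0.00 and 0.007 over all probe sets. For the 9 genes without a call at 24 hpf the intervals reached from -0.24 to 0.63, and for the 6 at 48 hpf from -0.35 to 0.48, so that changes beyond 1.55-fold up at 24 hpf and 1.39-fold up at 48 hpf lie outside them. At an unadjusted p under 0.05, limma gave 2 genes at 24 hpf and 4 at 48 hpf. The share of all probe sets at that looser threshold was not counted, so nothing is drawn from these counts.

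From 24 to 48 hpf only *mcl1a* and *aifm1* rose in both groups with all arrays. In controls 4 of the 9 rose between the times and none fell, where 20.9% of all probe sets rose and 25.0% fell. *mcl1a* rose most (0.59, SE 0.13, 1.50-fold, adjusted p = 0.000858), and *bcl2l10* (0.34, adjusted p = 0.00293), *aifm1* (0.27, adjusted p = 0.008) and *apaf1* (0.36, adjusted p = 0.0326) also rose. The *apaf1* rise rested on control replicate 3, without which it was 0.16 (adjusted p = 0.246). At 24 hpf, leaving out control replicate 1 (adjusted p = 0.0826) or replicate 3 (adjusted p = 0.0686) also ended the call. With the 48 hpf control of replicate 3 left out, 3 of the genes rose and *casp9* fell (-0.29, adjusted p = 0.0245, against -0.19 and 0.127 with it). Without control replicate 4 at 48 hpf *mcl1b* fell (-0.31, adjusted p = 0.00927, against -0.18 and 0.14 with it).

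In morphants 3 of the 9 rose from 24 to 48 hpf and none fell, where 21.1% of all probe sets rose and 21.4% fell. These were *mcl1a* (0.73, SE 0.12, 1.66-fold, adjusted p = 5.21e-05), *diabloa* (0.39, SE 0.09, 1.31-fold, adjusted p = 0.00198) and *aifm1* (0.25, adjusted p = 0.00968). With all arrays *tnfsf10l* gave 0.32 (adjusted p = 0.238) and *apaf1* 0.26 (adjusted p = 0.0936) in morphants. With the control of replicate 3 at 48 hpf left out of the shared fit both passed (adjusted p = 0.00167 and 0.0187), so that 5 of the 9 rose in morphants. *diabloa* gave 0.09 (adjusted p = 0.476) in controls and *bcl2l10* gave -0.09 (adjusted p = 0.409) in morphants. The *bcl2l10* values in morphants at 48 hpf, 7.97 ± 0.11 (SD, n = 4), overlapped those of both groups at 24 hpf, 7.88 to 8.13 in controls and 8.06 ± 0.06 (n = 4) in morphants, whereas controls at 48 hpf were at 8.34 ± 0.10 (n = 3). These changes share arrays with the morphant against control comparisons and are no separate evidence for them. Rises made up 45.6% of the calls in controls and 49.7% in morphants, or 71% and 85.8% with ribosomal protein centring. Under that centring 6 of the 9 genes rose in morphants, where 9179 of the 15502 probe sets rose, against 3277 before it. That count is therefore not read as a property of the group. *bcl2l1* was among the 6 (0.19, adjusted p = 0.0269, against -0.07 before). The second *aifm1* probe set also rose, by 0.32 in controls (adjusted p = 0.0172) and by 0.26 in morphants (adjusted p = 0.0349), while the second *apaf1* probe set, at 0.15 in controls (adjusted p = 0.256), did not.

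Among other genes of the cell death pathway, the initiator caspase gene *casp8* had the largest rise at both times. Of 72 listed genes 34 had a probe set of their own. The list was chosen with earlier results of these data known, so its counts are not read as a property of the pathway. At 24 hpf 7 of the 34 rose and none fell (4.43% and 5.33% of all probe sets), with a median of 0.07, and 3 of them passed 2-fold. These were *casp8* (2.93, adjusted p = 8.49e-12), the BH3-only gene *bbc3* (1.27) and the membrane-permeabilizing *baxa* (1.16). The others were *bnip4* (0.74, 1.67-fold), the inflammatory caspase gene *caspb* (0.53, 1.45-fold), the BH3-only gene *pmaip1* (0.47) and *tnfrsfa* (0.42, adjusted p = 0.0418), a receptor gene of the tumour necrosis factor family. The *tnfrsfa* call was lost in 6 of 8 fits that left out an array of that time. Second probe sets of *caspb* (0.23, adjusted p = 0.249) and *pmaip1* (0.10, adjusted p = 0.636) and both further ones of *tnfrsfa* (0.07 and 0.13) did not pass. With the 48 hpf control of replicate 3 out of the shared fit 9 rose, *aifm2* and *bcl2l13* being added.

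At 48 hpf 7 of the 34 rose and none fell (12.8% and 9.79% of all probe sets), with a median of 0.10. *casp8* (1.53), *caspb* (0.73, 1.66-fold), *baxa* (0.54) and *bbc3* (0.55) were called again, beside *bcl2l13* (0.60, 1.51-fold, adjusted p = 0.00253), a mitochondrial Bcl2 relative, the inflammatory caspase gene *caspa* (0.36, adjusted p = 0.0237) and the BH3-only gene *badb* (0.30, adjusted p = 0.0384). The second probe set of *bcl2l13* also rose (0.52, adjusted p = 0.00404), while those of *caspb* (0.16, adjusted p = 0.396) and *badb* (0.27, adjusted p = 0.0888) did not pass. Leaving out an array of that time ended the *badb* call in 4 of 7 fits, that of *caspa* in 3 and that of *bbc3* in 1, the fit without control replicate 4 (adjusted p = 0.0526). With the control of replicate 3 left out 5 rose, and 2 fell, the BH3 gene *bida* (-0.26, adjusted p = 0.0176) and *bnip3* (-0.42, adjusted p = 0.0248). By the interaction 4 of the 34 had a lower effect at 48 than at 24 hpf and none a higher one (2.52% and 3.75% of all probe sets). These were *casp8* (-1.40), *bnip4* (-0.64), *baxa* (-0.63) and *bbc3* (-0.72). The *bbc3* interaction was lost in 11 of 15 fits that each left out an array, the control of replicate 3 at 48 hpf among them, and with ribosomal protein centring. With the replicate number as a block *bbc3* by the interaction (adjusted p = 0.059), *tnfrsfa* at 24 hpf (adjusted p = 0.0771) and *badb* at 48 hpf (adjusted p = 0.0588) lost their calls. *bcl2l10* shares the sign of that interaction, but its effect at 24 hpf was near 0 where theirs were rises.

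**Figure D4:**
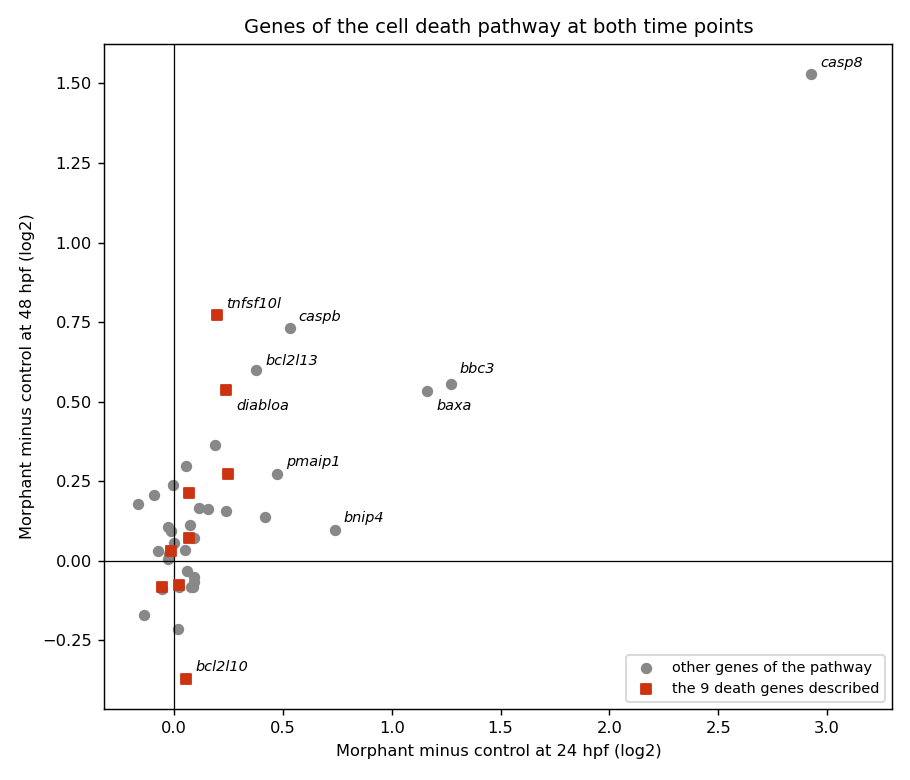
Morphant minus control at 24 hpf (horizontal axis) against 48 hpf (vertical axis), both log2, for the 9 death genes (red squares) and 34 other genes of the pathway (grey circles). *casp8* lies far out at 2.93 and 1.53, *diabloa* lies at 0.24 and 0.54 and *tnfsf10l* at 0.20 and 0.77, and *bcl2l10* lies below 0 on it.

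Markers of several cell types moved in the morphants at 48 hpf, the time of the calls above. Of the neuron markers 3 of 6 fell, of the myeloid markers 4 of 7 and of the red cell markers 2 of 5. Of the others, 1 of 4 epidermis and 1 of 2 lens markers rose and none of 4 muscle markers passed. Over all probe sets 12.8% rose and 9.79% fell at that time. The marker counts are given with all arrays only, control replicate 3 among them. The mean of the myeloid markers was 6.62 to 6.93 in controls and 6.31 to 6.51 in morphants, of the neuron markers 9.14 to 9.79 and 9.15 to 9.35, and of the red cell markers 9.61 to 9.89 and 9.28 to 9.55. The part of these shifts in the *diabloa*, *tnfsf10l* and *bcl2l10* differences was not tested.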

How the data were processed

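Whole zebrafish embryos were profiled on 15 Affymetrix GeneChip Zebrafish Genome Arrays. The authors deposited log2 values from RMA (background correction, quantile normalization and a summary per probe set) after a quality check with AffyQCReport, in versions not given in the sources used here. RMA sets all arrays to one distribution, so values are relative to the other transcripts on an array. Arrays have no counting depth, and their number limits the precision.

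Of 15617 probe sets, 115 Affymetrix controls were left out. The platform annotation gave 1 symbol to 10795 probe sets, several to 135 and none to 4572. The genes and lists were chosen with earlier results of these data known. A gene was represented by its probe set with the highest mean over all arrays. All list genes with a probe set were named, and of the other pathway genes those with an adjusted p under 0.05, at most 8 per comparison. *aifm2*, *bida* and *bnip3* did not pass with all arrays and were named after their values were seen. A linear model with 4 group means was fitted in R 4.3.3 with limma 3.58.1 (lmFit, eBayes, two-sided, Benjamini-Hochberg over 15502 probe sets) and was tested on simulated data. Tables were made with Python 3.11.15 and pandas 2.3.3, figures with matplotlib 3.10.9. Replicates are named biological in the labels. Alternatives were a replicate block, each time point alone, a filter on dim probe sets (lowest 25 percent), quantile normalization again, cyclic loess, ribosomal protein centring, eBayes with trend and robust options, array weights, averaging a gene's probe sets, a fold of at least 2, and leaving out each array.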

Additional observations from a re-analysis of the deposited data

Results flagged for a closer look

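The *apaf1* value of morphant replicate 3 at 48 hpf was 6.56, below the other 3 morphant arrays of that time at 6.88, 6.88 and 6.91, and its gap to the nearest of them passed Dixon's limit at the 95% level. It is 1 array of 1 group among the 27 groups of 4 arrays tested, and chance flags about 1 in 20 groups. The *bcl2l10* effect differed between the time points by the interaction test (-0.427 on the log2 scale, adjusted p = 0.0349 from limma), with a difference of 0.06 at 24 hpf and -0.37 at 48 hpf.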

How the results depend on the processing

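Over the 9 genes, 378 values under alternatives other than leaving out an array gave 358 with the same call, 4 that lost it, 15 that gained it and 1 with a new sign, *bcl2l1* from 24 to 48 hpf in morphants (0.19 with ribosomal protein centring, -0.07 before). Leaving out an array of the groups compared gave 405 values, of which 12 lost and 5 gained a call. Calls that changed when an array of another group was left out, as for *tnfsf10l* and *apaf1* in morphants over time, are not in these counts. Signs changed 53 times where neither value passed, at sizes up to 0.25. Ribosomal protein centring moved the median of all probe sets to 0.13 at 48 hpf, 0.103 for the interaction, and 0.179 in controls and 0.281 in morphants over time. Differences under it are relative to that shift. The members that rose at 24 hpf numbered 2 in place of 0 with each time point alone or with array weights. Those that rose at 48 hpf numbered 1 in place of 2 with that time point alone, 3 without dim probe sets, 4 with ribosomal protein centring or array weights, and 2 to 3 as arrays were left out. Those with an interaction below 0 numbered 0 in place of 1 with the replicate block or that centring, and 0 to 1 as arrays were left out. Over time, 2 members fell in controls with array weights and 0 to 1 as arrays were left out. In morphants 6 rose over time with ribosomal protein centring, where the risen probe sets went from 3277 to 9179. Under the 2-fold rule the member counts were 0 in every comparison, and other pathway genes numbered 3 that rose at 24 hpf, 1 at 48 hpf and 1 with a lower effect at 48 hpf. Without that rule, 13 pathway genes rose at 48 hpf with ribosomal protein centring, where the risen probe sets also went from 1988 to 4027. With array weights 12 rose, in place of 7. The number was 8 without dim probe sets or with the trend and robust options of eBayes. It was 6 with the replicate block or quantile normalization again, and 5 with cyclic loess or the arrays at 48 hpf alone. With quantile normalization again or cyclic loess 1 fell, *bida*, and with array weights 2, *bida* and *bnip3* (0 to 2 as arrays were left out). Calls over all probe sets were counted only for the fit described first and under ribosomal protein centring. The counts under the other alternatives, the 2-fold rule among them, thus have no share to be read against. The cause of these changes was not tested.

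Replicate numbers gave at most a weak pairing of the arrays at 24 hpf and none at 48 hpf. At 24 hpf the deviations of same-numbered controls and morphants correlated at 0.20, 0.12, 0.02 and 0.12, against -0.25 to 0.11 for different numbers. At 48 hpf they correlated at -0.14, -0.45 and -0.08, against -0.27 to 0.42 for different numbers. With the replicate number as a block the *bcl2l10* interaction was -0.43 (adjusted p = 0.0653), and no other member call changed. Of the other pathway genes, *tnfrsfa* at 24 hpf, *badb* at 48 hpf and the *bbc3* interaction lost their calls under it.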
